A study of Mus musculus with 16 samples.

Results

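The genes described here drive cells through DNA replication and mitosis. A list of 40 genes was used, and a gene was represented by the probeset that carries only its symbol in the platform table and has the highest mean over the 16 arrays. Of the 40, 39 were measured, among 19937 genes with such a probeset. The exception was *Ccnb1*, the mitotic cyclin B1, for which no such probeset was found. Total RNA was hybridised to MoGene 1.0 arrays, 1 array per sample, from inbred FVB/NCrl mice. Total cochlea without the vestibular labyrinth was taken at postnatal day 18 (P18-cochlea) from 3 homozygous transgenic samples (Tg1MDW/1MDW, called Tg below) and 3 samples of wild-type (WT) littermates. The microdissected organ of Corti was taken at postnatal day 5 (P5-OC) from 5 Tg and 5 WT samples. The transgene, Tg(GFAP-Mir183,Mir96,Mir182)1MDW, places the miR-183 cluster under a core human GFAP promoter, and all Tg samples come from 1 founder line. At P18 the authors detected miR-182 in supporting cells, spiral limbus cells and Schwann cells of Tg mice. At P5 they could not see clear differences from WT in where the cluster was expressed.

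Values are normalized log2 signals as deposited, so a difference of 1 is a 2-fold difference. Groups follow the sample names, since other label fields contradict them in age, tissue and genotype. The 4 measured transgene elements (*Mir182*, *Mir96*, *Mir183* and *Prm1*) followed the names, with means per array of 7.65 to 7.77 in Tg and 4.24 to 4.42 in WT at P18, and of 7.64 to 8.48 in Tg and 4.43 to 4.96 in WT at P5. Arrays correlated at 0.990 to 0.995 within P18, at 0.973 to 0.992 within P5 and at 0.902 to 0.937 between the ages. The sample names call the replicates biological, but whether a sample is 1 animal or a pool is not stated. The p-values therefore measure the spread between these samples, which may be technical in part. In P5-OC, Y-linked genes were high on 1 Tg and 4 WT arrays and low on the other 5. In P18-cochlea they were intermediate on all 6 arrays, at 7.65 to 7.66 in Tg and 7.22 to 7.34 in WT. Tests were moderated contrasts in limma over all 34760 probesets, and a probeset was called at a Benjamini-Hochberg adjusted p under 0.05.

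A dividing cell first loads the MCM helicase onto its origins in G1, with the help of CDC6 and CDT1. Cyclin E and cyclin A with their kinases then start S phase, when CDC45 and the GINS complex join MCM to form the moving helicase and PCNA clamps the polymerases to DNA. Cyclin A, cyclin B and CDK1 bring the cell into mitosis, where Aurora and Polo kinases build the spindle and the anaphase-promoting complex ends the division by destroying cyclins. E2F factors drive the replication genes, and FOXM1 with the MuvB complex drives the mitotic ones. In the mouse organ of Corti, hair cells and supporting cells have left the cell cycle before birth.

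Replication and mitosis genes are known to be switched through different short promoter elements, and stretches of 5 member promoters are shown because they carry them. RefSeq promoter windows (GRCm38.p6, 250 bases before to 50 after each annotated start) were found for 30 of the 39 measured genes. They were searched on both strands for the E2F-type motifs TTTCGCGC, TTTGGCGC and TTCCCGCC, for the CHR-type motifs TTTGAA and TTCGAA (CHR, cell cycle genes homology region), and for CCAAT. Below are the last 160 bases before the start and the first 50 after it, read along the gene, with matches in capitals (a match on the other strand appears as its reverse complement). They belong to the helicase subunits *Mcm5* (chr8:75109349-75109558, plus strand) and *Mcm6* (chr1:128359656-128359865, minus strand), the kinase *Cdk1* (chr10:69352863-69353072, minus strand), the cyclin *Ccnb2* (chr9:70421505-70421714, minus strand) and the ubiquitin-conjugating enzyme *Ube2c* (chr2:164769769-164769978, plus strand).
Mcm5: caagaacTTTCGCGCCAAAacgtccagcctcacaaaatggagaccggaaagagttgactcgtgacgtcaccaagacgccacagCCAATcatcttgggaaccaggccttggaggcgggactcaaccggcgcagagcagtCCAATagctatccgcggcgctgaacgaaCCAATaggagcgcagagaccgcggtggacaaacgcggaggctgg
Mcm6: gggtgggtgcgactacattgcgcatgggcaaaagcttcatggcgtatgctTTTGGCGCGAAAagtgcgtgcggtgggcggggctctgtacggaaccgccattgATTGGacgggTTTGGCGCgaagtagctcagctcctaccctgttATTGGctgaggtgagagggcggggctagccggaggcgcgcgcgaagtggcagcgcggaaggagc
Cdk1: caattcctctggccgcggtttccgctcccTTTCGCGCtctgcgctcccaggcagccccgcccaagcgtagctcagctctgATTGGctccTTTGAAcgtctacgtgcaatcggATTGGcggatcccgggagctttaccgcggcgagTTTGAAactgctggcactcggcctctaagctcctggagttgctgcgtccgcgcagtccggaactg
Ccnb2: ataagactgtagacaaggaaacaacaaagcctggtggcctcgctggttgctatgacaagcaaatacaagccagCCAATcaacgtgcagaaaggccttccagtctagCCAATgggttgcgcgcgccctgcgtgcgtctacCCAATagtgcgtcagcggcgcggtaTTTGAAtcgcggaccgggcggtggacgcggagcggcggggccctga
Ube2c: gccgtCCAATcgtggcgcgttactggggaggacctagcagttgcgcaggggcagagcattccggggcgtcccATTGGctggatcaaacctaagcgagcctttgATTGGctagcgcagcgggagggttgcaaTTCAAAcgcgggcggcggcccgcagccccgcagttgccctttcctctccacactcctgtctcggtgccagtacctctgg
In *Mcm5* and *Mcm6* a TTTCGCGC match and a TTTGGCGC match overlap on opposite strands and make 1 run of capitals. *Cdk1* has an E2F-type match together with CHR-type matches and CCAAT, while the windows of *Ccnb2* and *Ube2c* have CHR-type matches and CCAAT and no E2F-type match.

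E2F-type matches were present in the windows of 7 of the 30 genes: *Mcm3*, *Mcm5*, *Mcm6*, *Mcm7*, *Cdt1*, *Rrm1* and *Cdk1*. Counted by window, these were 21.9% of the member windows, against 2.96% of all 32851 windows of the same length. CHR-type matches were present for 16 genes (53.1% of member windows, against 19.2% of all) and CCAAT for 23 (78.1%, against 37.4%). By role, 6 of the 12 licensing, fork and nucleotide genes with a window had an E2F-type match and 3 had a CHR-type match. Of the 18 genes of the other roles with a window, 1 (*Cdk1*) had an E2F-type match and 13 had a CHR-type match, each of these 13 with CCAAT as well. These are matches of letters in a window, and binding was not measured.

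All 39 measured members were higher in P18-cochlea than in P5-OC, in both genotypes. They are 100% of the measured members, while 21.1% of all 34760 probesets were called higher at P18 in Tg and 19.8% in WT. The median log2 change over the members was 1.82 in Tg and 2.11 in WT, and over all probesets it was -0.11 in Tg and -0.06 in WT. A change of at least 2-fold was found for 38 of 39 in each genotype, against 5.93% of all probesets in Tg and 5.50% in WT, and *Gins2* was the exception in both. In every member, all P18 arrays of a genotype lay above all P5 arrays of that genotype, as the plot of each array shows. Tissue and age change together here and cannot be told apart, and in bulk RNA fewer cells of a type and less RNA per cell cannot be told apart either.

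**Figure D1:**
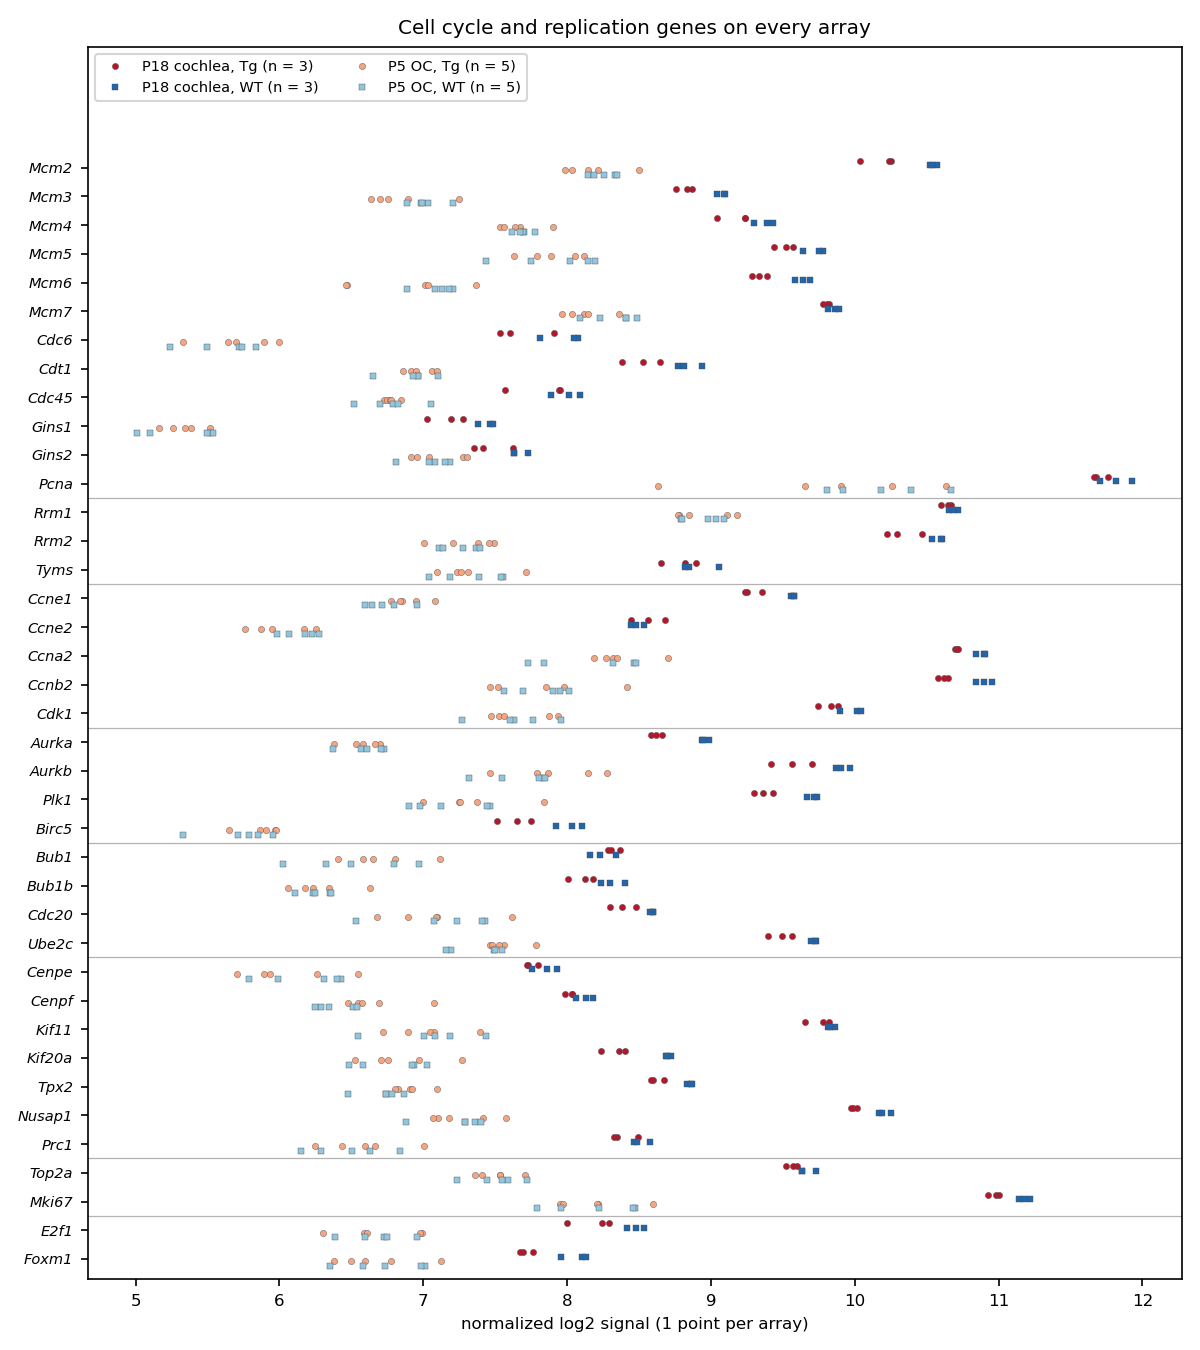
Normalized log2 signal (horizontal axis) of the 39 measured genes (rows, grouped by role between the grey lines), 1 point per array, for P18-cochlea Tg and WT (n = 3 each) and P5-OC Tg and WT (n = 5 each). The P18 points lie to the right of the P5 points in every row, with the narrowest gap in *Gins2*.

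Among the genes that license origins and form the replication fork, *Mcm6*, a subunit of the MCM2-7 helicase, changed most. It measured 9.33, 9.39 and 9.29 in Tg and 9.69, 9.59 and 9.64 in WT P18-cochlea, against 6.47, 6.46, 7.37, 7.01 and 7.03 in Tg and 6.88, 7.13, 7.09, 7.21 and 7.18 in WT P5-OC. All P18 values lay well above all P5 values, and the log2 change was 2.47 in Tg and 2.54 in WT (standard error 0.16 in both, adjusted p = 5.45e-09 in Tg and 3.57e-09 in WT). The other helicase subunits had log2 changes of 2.001 in Tg and 2.29 in WT for *Mcm2*, 1.97 in Tg and 2.06 in WT for *Mcm3*, 1.51 in Tg and 1.68 in WT for *Mcm4*, 1.61 in Tg and 1.82 in WT for *Mcm5* and 1.68 in Tg and 1.53 in WT for *Mcm7*. All 6 subunits therefore rose at least 2.85-fold in Tg and 2.89-fold in WT. The loaders *Cdc6* and *Cdt1* rose on the log2 scale by 1.97 in Tg and 2.37 in WT, and by 1.54 in Tg and 1.92 in WT. *Cdc45*, which joins MCM in the active helicase, rose on the log2 scale by 1.05 in Tg and 1.22 in WT.

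The GINS subunits, which complete that helicase, had changes of unlike size, whose difference was not tested. *Gins1* rose on the log2 scale by 1.83 in Tg and 2.11 in WT, whereas *Gins2* had the smallest change of all members. *Gins2* measured 7.42, 7.62 and 7.35 in Tg and 7.73, 7.63 and 7.63 in WT P18-cochlea, against 7.27, 6.92, 7.30, 6.96 and 7.04 in Tg and 7.08, 6.81, 7.19, 7.15 and 7.04 in WT P5-OC. Its lowest P18 value exceeded its highest P5 value by a few hundredths in Tg, with a log2 change of 0.37 in Tg and 0.61 in WT (standard error 0.11, adjusted p = 0.0104 in Tg and 0.000215 in WT). In Tg it was no longer called without Tg replicate 2 of P18 (0.29, adjusted p = 0.0702) or when the mean Y-linked signal entered the fit (0.32, adjusted p = 0.0571). *Pcna*, the sliding clamp, rose on the log2 scale by 1.89 in Tg and 1.62 in WT, with the widest standard error of the members (0.32). A single P5 Tg array, replicate 5, read 8.63 for it while the other P5 arrays read 9.66 to 10.67. The second *Pcna* probeset read 10.14 on that array and gave log2 changes of 1.54 in Tg and 1.74 in WT.

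Nucleotide supply held the gene with the largest change of all. *Rrm2*, the subunit of ribonucleotide reductase whose level follows S phase, measured 10.22, 10.47 and 10.30 in Tg and 10.61, 10.54 and 10.60 in WT P18-cochlea, against 7.20, 7.38, 7.49, 7.004 and 7.46 in Tg and 7.11, 7.13, 7.36, 7.40 and 7.28 in WT P5-OC. It was 8.12-fold higher at P18 in Tg and 10.02-fold higher in WT (log2 change 3.02 in Tg and 3.32 in WT, standard error 0.11, adjusted p = 6.38e-12 in Tg and 1.82e-12 in WT). *Rrm1*, the other subunit of the enzyme, rose on the log2 scale by 1.70 in Tg and 1.75 in WT. *Tyms*, which makes thymidylate, had the smallest change of the 3, with 8.82, 8.66 and 8.89 in Tg and 9.05, 8.85 and 8.82 in WT P18-cochlea, against 7.23, 7.10, 7.71, 7.31 and 7.26 in Tg and 7.39, 7.18, 7.04, 7.55 and 7.54 in WT P5-OC. Its log2 change was 1.47 in Tg and 1.56 in WT (adjusted p = 3.21e-07 in Tg and 1.43e-07 in WT).

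Cyclins and CDK1 had a median log2 change of 2.38 in Tg and 2.71 in WT. *Ccnb2*, a B-type cyclin of mitosis, measured 10.58, 10.62 and 10.65 in Tg and 10.84, 10.90 and 10.95 in WT P18-cochlea, against 7.47, 7.52, 8.42, 7.86 and 7.98 in Tg and 7.56, 7.69, 7.90, 7.95 and 8.01 in WT P5-OC. It was 6.8-fold higher at P18 in Tg and 8.42-fold in WT (adjusted p = 2.11e-09 in Tg and 5.62e-10 in WT). *Cdk1*, its kinase partner, had the smallest change of this group in both genotypes, at 9.74, 9.89 and 9.84 in Tg and 9.90, 10.02 and 10.04 in WT P18-cochlea, against 7.53, 7.47, 7.94, 7.56 and 7.88 in Tg and 7.63, 7.76, 7.96, 7.27 and 7.61 in WT P5-OC. That is a log2 change of 2.15 in Tg and 2.34 in WT (adjusted p = 3.41e-09 in Tg and 1.14e-09 in WT). *Ccna2*, the cyclin of S phase and G2, rose on the log2 scale by 2.34 in Tg and 2.71 in WT. The E-type cyclins, which start S phase, rose on the log2 scale by 2.38 in Tg and 2.83 in WT for *Ccne1* and by 2.56 in Tg and 2.34 in WT for *Ccne2*.

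Of the mitotic kinases and their partners, *Plk1*, the Polo kinase of spindle assembly, measured 9.30, 9.36 and 9.43 in Tg and 9.74, 9.67 and 9.72 in WT P18-cochlea, against 6.997, 7.25, 7.84, 7.38 and 7.25 in Tg and 6.90, 6.98, 7.12, 7.46 and 7.45 in WT P5-OC (log2 change 2.02 in Tg and 2.53 in WT). *Aurkb*, the kinase of the chromosomal passenger complex, changed least of these 4, with 9.41, 9.70 and 9.56 in Tg and 9.87, 9.91 and 9.97 in WT P18-cochlea, against 7.47, 7.87, 8.28, 8.14 and 7.79 in Tg and 7.55, 7.32, 7.84, 7.81 and 7.85 in WT P5-OC (log2 change 1.65 in Tg and 2.24 in WT). Both ages were separate in each genotype for both genes, with adjusted p = 4.38e-08 in Tg and 3.05e-09 in WT for *Plk1* and 4.12e-07 in Tg and 1.15e-08 in WT for *Aurkb*. *Birc5*, which carries survivin, the passenger subunit that places Aurora B, rose on the log2 scale by 1.76 in Tg and 2.29 in WT. *Aurka*, the Aurora kinase of the spindle poles, rose on the log2 scale by 2.05 in Tg and 2.36 in WT.

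In the spindle checkpoint and the anaphase-promoting complex, *Ube2c*, the enzyme that hands ubiquitin to that complex, measured 9.40, 9.50 and 9.56 in Tg and 9.73, 9.72 and 9.69 in WT P18-cochlea, against 7.46, 7.47, 7.78, 7.56 and 7.53 in Tg and 7.19, 7.16, 7.55, 7.49 and 7.50 in WT P5-OC. *Cdc20*, the activator of the complex that the checkpoint restrains, measured 8.48, 8.30 and 8.38 in Tg and 8.60, 8.60 and 8.57 in WT P18-cochlea, against 7.09, 7.09, 7.62, 6.89 and 6.68 in Tg and 7.07, 6.53, 7.23, 7.43 and 7.41 in WT P5-OC. The log2 changes were 1.93 in Tg and 2.34 in WT for *Ube2c* (adjusted p = 4.07e-10 in Tg and 4.19e-11 in WT) and 1.31 in Tg and 1.45 in WT for *Cdc20* (adjusted p = 4.29e-05 in Tg and 1.48e-05 in WT). The checkpoint kinase *Bub1* rose on the log2 scale by 1.61 in Tg and 1.72 in WT, and *Bub1b*, which carries BubR1, by 1.82 in Tg and 2.05 in WT.

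Kinetochore, spindle and midzone genes had log2 changes of 1.35 to 2.73 in Tg and 1.67 to 2.96 in WT. *Nusap1*, which bundles spindle microtubules, measured 9.99, 9.98 and 10.01 in Tg and 10.25, 10.17 and 10.19 in WT P18-cochlea, against 7.11, 7.42, 7.57, 7.07 and 7.18 in Tg and 7.29, 6.88, 7.36, 7.29 and 7.40 in WT P5-OC (log2 change 2.72 in Tg and 2.96 in WT, adjusted p = 7.97e-11 in Tg and 2.85e-11 in WT). *Cenpe*, the kinesin that tethers kinetochores to microtubules, measured 7.73, 7.72 and 7.80 in Tg and 7.93, 7.86 and 7.76 in WT P18-cochlea, against 5.90, 6.26, 6.54, 5.94 and 5.70 in Tg and 5.79, 5.99, 6.43, 6.31 and 6.40 in WT P5-OC (log2 change 1.68 in Tg and 1.67 in WT, adjusted p = 7.53e-07 in Tg and 7.62e-07 in WT). The smallest change in WT was thus that of *Cenpe*, and the smallest in Tg was that of *Cenpf*, a large kinetochore protein (1.35 in Tg and 1.74 in WT). The motor *Kif11*, which pushes spindle poles apart, rose on the log2 scale by 2.73 in Tg and 2.78 in WT. *Kif20a*, a kinesin of the midzone, rose on the log2 scale by 1.49 in Tg and 1.91 in WT. *Tpx2*, which activates Aurora A on the spindle, rose on the log2 scale by 1.71 in Tg and 2.13 in WT. The midzone crosslinker *Prc1* rose on the log2 scale by 1.80 in Tg and 2.03 in WT.

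*Mki67*, which encodes the Ki-67 antigen used to stain cycling cells, measured 10.93, 10.98 and 11.01 in Tg and 11.14, 11.22 and 11.17 in WT P18-cochlea, against 7.95, 8.21, 8.60, 8.21 and 7.97 in Tg and 7.79, 7.96, 8.47, 8.22 and 8.46 in WT P5-OC. It was 6.88-fold higher at P18 in Tg and 7.99-fold in WT (adjusted p = 9.12e-10 in Tg and 3.46e-10 in WT). *Top2a*, the topoisomerase that untangles sister chromatids, measured 9.60, 9.57 and 9.52 in Tg and 9.63, 9.73 and 9.64 in WT P18-cochlea, against 7.36, 7.41, 7.71, 7.53 and 7.54 in Tg and 7.24, 7.59, 7.44, 7.55 and 7.72 in WT P5-OC, a log2 change of 2.06 in Tg and 2.16 in WT. Its second probeset gave log2 changes of 0.19 in Tg and 0.17 in WT and was not called (adjusted p = 0.404 in Tg and 0.479 in WT), with values of 3.87 to 4.64 over all arrays, below the lower quartiles of the arrays (4.54 to 5.05) on most of them.

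The transcription factors had the lowest median log2 change of the roles, at 1.26 in Tg and 1.56 in WT. *E2f1*, an activator of S phase genes, measured 7.996, 8.29 and 8.24 in Tg and 8.42, 8.48 and 8.53 in WT P18-cochlea, against 6.59, 6.30, 6.99, 6.98 and 6.61 in Tg and 6.39, 6.72, 6.75, 6.96 and 6.59 in WT P5-OC. *Foxm1*, the forkhead factor of mitotic genes, measured 7.69, 7.67 and 7.76 in Tg and 8.10, 7.96 and 8.13 in WT P18-cochlea, against 6.38, 6.50, 7.13, 6.59 and 6.78 in Tg and 6.35, 6.58, 6.73, 7.01 and 6.98 in WT P5-OC. Their log2 changes were 1.48 in Tg and 1.80 in WT for *E2f1* (adjusted p = 6.88e-07 in Tg and 7.44e-08 in WT) and 1.03 in Tg and 1.33 in WT for *Foxm1* (adjusted p = 6.07e-05 in Tg and 4.4e-06 in WT).

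**Figure D2:**
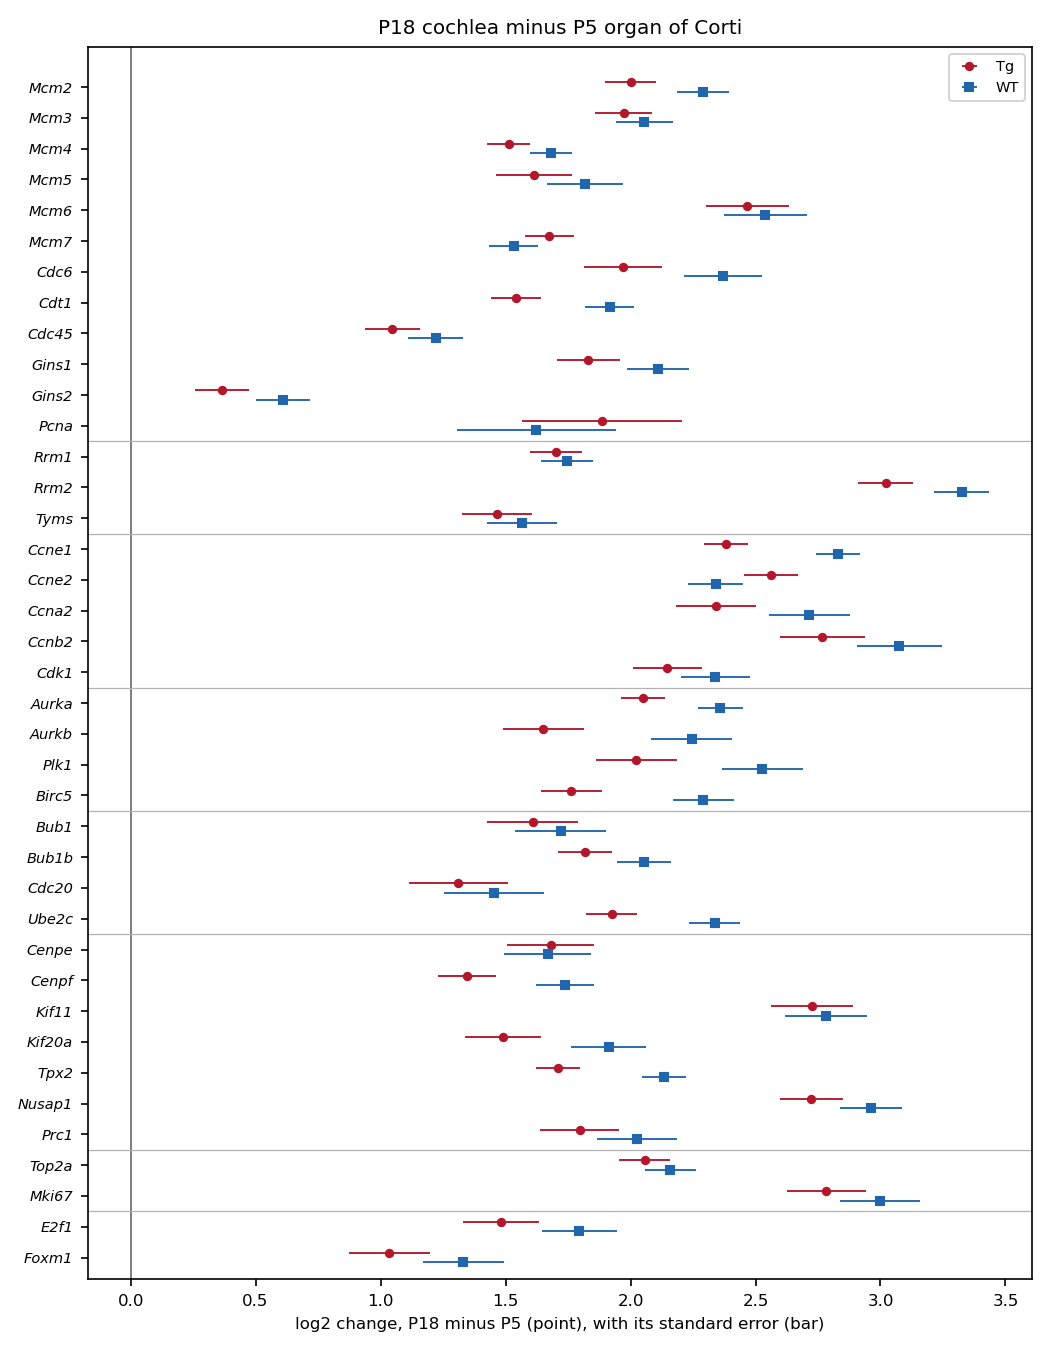
Log2 change between P18-cochlea and P5-OC (horizontal axis, P18 minus P5) for each of the 39 genes (rows, grouped by role), with its standard error as a bar, in Tg (circles) and WT (squares). All changes are positive, between 0.37 for *Gins2* in Tg and 3.32 for *Rrm2* in WT.

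Other genes of the same pathways, taken from lists that do not include the members, moved largely the same way. Of 36 other replication genes measured, 34 were called higher at P18 in each genotype. The median log2 change over the 36 was 0.92 in Tg and 0.998 in WT, below that of the members. The largest was that of *Orc1* of the origin recognition complex (2.22 in Tg and 2.38 in WT). *Cdc7*, the kinase that fires origins, was not called, and the exception in direction was *Pole*, the catalytic subunit of the leading-strand polymerase, which was lower (log2 change -0.85 in Tg and -0.50 in WT). All 49 other mitosis genes measured were called higher in both genotypes, with a median log2 change of 1.55 in Tg and 1.70 in WT. The largest was that of the hyaluronan receptor and spindle protein *Hmmr* (2.72 in Tg and 3.11 in WT). The phosphatase *Cdkn3* rose by 2.24 in Tg and 2.67 in WT. Upstream of S phase the picture was mixed. Among 26 genes of the G1 cyclins, their kinases, the pocket proteins and other E2F factors, 15 were called higher and 3 lower in Tg, and 16 higher and 5 lower in WT. *E2f2* and *E2f8* rose on the log2 scale by 2.59 in Tg and 3.05 in WT, and by 3.07 in Tg and 3.41 in WT. The D-type cyclins *Ccnd1* and *Ccnd2*, which answer growth signals in G1, were lower at P18 (log2 change -1.43 in Tg and -1.53 in WT for *Ccnd1*, -0.97 in Tg and -0.93 in WT for *Ccnd2*), as was *Mycn* (-1.18 in Tg and -1.25 in WT). Of 6 CDK inhibitors measured, *Cdkn2c* and *Cdkn2d* were higher (1.43 in Tg and 1.67 in WT, and 1.55 in Tg and 1.73 in WT) and *Cdkn1c*, which holds differentiating cells out of the cycle, was lower (-1.19 in Tg and -1.13 in WT). *Cdkn2b* was also lower in Tg (-0.44, adjusted p = 0.0082) and *Cdkn1b*, which encodes p27, was also lower in WT (-0.30, adjusted p = 0.0119). Of 15 checkpoint and damage response genes, 11 were higher and 2 lower in Tg, and 10 higher and 3 lower in WT, with *Chek2* among the higher (1.72 in Tg and 1.95 in WT) and *Plk2* among the lower (-1.03 in Tg and -1.52 in WT).

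Markers of blood cells, whose precursors divide in bone marrow, moved with the same contrast. All 8 erythroid markers measured were called higher at P18 (median log2 change 3.79 in Tg and 4.06 in WT), and their mean per array was 10.33 to 10.37 in Tg and 10.51 to 10.58 in WT P18-cochlea, against 6.04 to 6.47 in Tg and 5.98 to 6.21 in WT P5-OC. All 12 neutrophil and monocyte markers were called higher as well (median 4.17 in Tg and 4.53 in WT), with means of 9.65 to 9.70 in Tg and 9.85 to 9.89 in WT at P18, against 5.41 to 5.76 in Tg and 5.13 to 5.52 in WT at P5. Of 11 B lineage markers, 9 were called higher in each genotype, and 2 were called lower in Tg and 1 in WT. Markers of organ of Corti cells were more often lower than higher, as were all probesets, of which 33.0% were called lower at P18 in Tg and 30.2% in WT. Of 10 supporting cell markers, 6 were called lower at P18 and 1 higher in each genotype, and of 10 hair cell markers 6 were called lower and 3 higher. *Klf1* and *Gata1*, transcription factors of red cell precursors, averaged 9.20 ± 0.06 and 8.75 ± 0.08 in Tg and 9.60 ± 0.06 and 9.11 ± 0.15 in WT P18-cochlea (SD, n = 3 each). Over all 8 erythroid markers, log2 changes between Tg and WT at P18 ran from -0.40 to 0.08, with a median of -0.20 and no call. The difference in *Klf1* is at the low end of that range and is not typical of the list. Bone and cartilage markers were split, with 7 of 10 called higher and 3 lower in each genotype. Of 8 endothelial markers, 5 were called higher and 1 lower in Tg, and 5 higher and 2 lower in WT. The part of these cells in the higher level of the cell cycle genes was not tested.

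**Figure D3:**
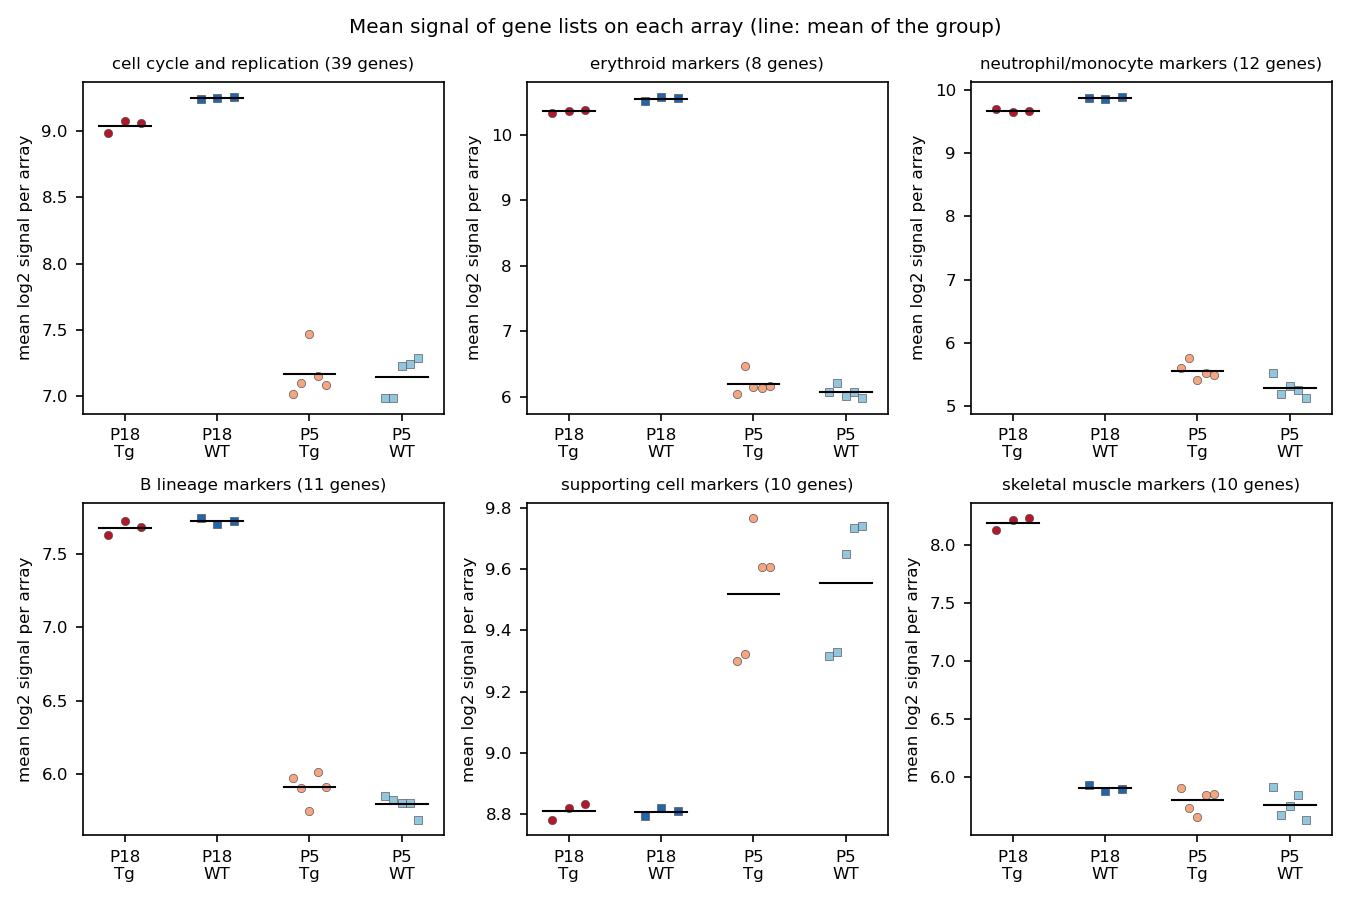
Mean normalized log2 signal per array (vertical axes, each with its own range) of the 39 cell cycle and replication genes and of 5 marker lists, in P18-cochlea Tg and WT and P5-OC Tg and WT. Points are arrays and lines are group means. The cell cycle, erythroid, neutrophil/monocyte and B lineage panels share the order of the ages. At P18 the Tg arrays lie below the WT arrays in the first 3 of these. In the B lineage panel they overlap (7.63 to 7.72 in Tg, 7.71 to 7.75 in WT). At P5 the median log2 change between Tg and WT was 0.01, 0.19, 0.27 and 0.06 for these lists in that order, with no call.

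The genotype comparison asked whether the transgene changed these genes. In P18-cochlea, no member was called between Tg and WT, against 0.443% of all probesets. At an unadjusted p under 0.05 there were 7 members (17.9%, against 8.77% of all probesets), and the smallest adjusted p was 0.233, for *Aurka*. The log2 change was below 0 for 37 of 39 (55.4% of all probesets), with a median of -0.21 against -0.02 over all probesets, and with *Ccne2* (0.08) and *Bub1* (0.08) as the exceptions. In 28 of 39 (71.8%), all 3 Tg arrays lay below all 3 WT arrays, as they did for 13.6% of all probesets, and in no member did all Tg arrays lie above all WT arrays (14.0% of all probesets). These genes were read from the same 6 arrays and are not independent of each other. Their mean per array was 8.99, 9.08 and 9.06 in Tg, against 9.24, 9.26 and 9.26 in WT.

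The role with the lowest median log2 change was that of the mitotic kinases and passengers (-0.35). *Birc5* measured 7.51, 7.65 and 7.75 in Tg and 7.92, 8.03 and 8.10 in WT P18-cochlea (log2 change -0.38, standard error 0.14, adjusted p = 0.364). *Aurka* measured 8.58, 8.66 and 8.62 in Tg and 8.94, 8.98 and 8.95 in WT P18-cochlea (-0.34, standard error 0.10, adjusted p = 0.233). The groups do not overlap in either gene, nor in *Plk1* and *Aurkb*, whose values at P18 are given above and whose log2 changes were -0.34 and -0.36. *Kif20a* measured 8.24, 8.36 and 8.41 in Tg and 8.69, 8.72 and 8.70 in WT P18-cochlea (-0.37, adjusted p = 0.556). Among replication genes, *Mcm2* measured 10.04, 10.25 and 10.24 in Tg and 10.52, 10.57 and 10.54 in WT P18-cochlea (-0.37, standard error 0.11, adjusted p = 0.267). All Tg arrays lay below all WT arrays in 8 of the 12 licensing and fork genes, against 13.6% of all probesets. Both transcription factors also had all Tg arrays below all WT arrays, with log2 changes of -0.30 for *E2f1* and -0.35 for *Foxm1*. At the other end, *Rrm1* and *Mcm7* differed by -0.05 and -0.06, and their groups overlapped.

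The absence of calls at P18 depended on the weight given to the arrays. With weights estimated from the arrays, 7 members were called, all lower in Tg: *Mcm2*, *Cdt1*, *Ccne1*, *Aurka*, *Birc5*, *Kif20a* and *Tpx2*. They are 17.9% of the members, while under those weights 6.27% of all probesets were called, and 2.07% were called lower in Tg. In a fit of the P18 arrays alone, *Aurka* was called (adjusted p = 0.0483), against 1.37% of all probesets, and 25 members had an unadjusted p under 0.05 (64.1%, against 20.3% of all probesets).

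In the related lists, no other replication gene and no other mitosis gene was called at P18. All Tg arrays lay below all WT arrays in 17 of 36 and 26 of 49, against 13.6% of all probesets. In 1 replication gene they all lay above, against 14.0% of all probesets. Among the G1 regulators 1 gene was called, the E2F factor *E2f2*, which measured 8.94, 9.01 and 8.96 in Tg and 9.29, 9.52 and 9.37 in WT P18-cochlea. Its log2 change was -0.43 (standard error 0.08, adjusted p = 0.0269), all Tg arrays lay below all WT arrays, and at P5 it was 0.03 (adjusted p = 0.816). The difference between these effects was not called (adjusted p = 0.0605).

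Levels of other markers also differed between the genotypes at P18. The erythroid and the neutrophil and monocyte markers had median log2 changes of -0.20 and -0.20 with no call. All Tg arrays lay below all WT arrays for 6 of 8 and 6 of 12 of them, against 13.6% of all probesets. The means per array of both lists, given above, do not overlap between genotypes. B lineage markers had a median of -0.06. Of the 11, 3 had all Tg arrays below all WT arrays and 2 all above, against 13.6% and 14.0% of all probesets. All 10 skeletal muscle markers were called higher in Tg, with means per array of 8.13 to 8.23 in Tg and 5.88 to 5.94 in WT, and 5 of 10 cerebellar granule lineage markers were called lower. Means per array of the granule lineage markers were 6.61 to 6.64 in Tg and 7.21 to 7.24 in WT. Those of the CDK inhibitors also lay lower in Tg without overlap (7.83 to 7.92 in Tg, 7.99 to 8.03 in WT). The part of these differences in the values of the cell cycle genes was not tested. With the mean Y-linked signal in the fit, 0 members were called at P18. Their median log2 change was then -0.207, against -0.211 without it.

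**Figure D4:**
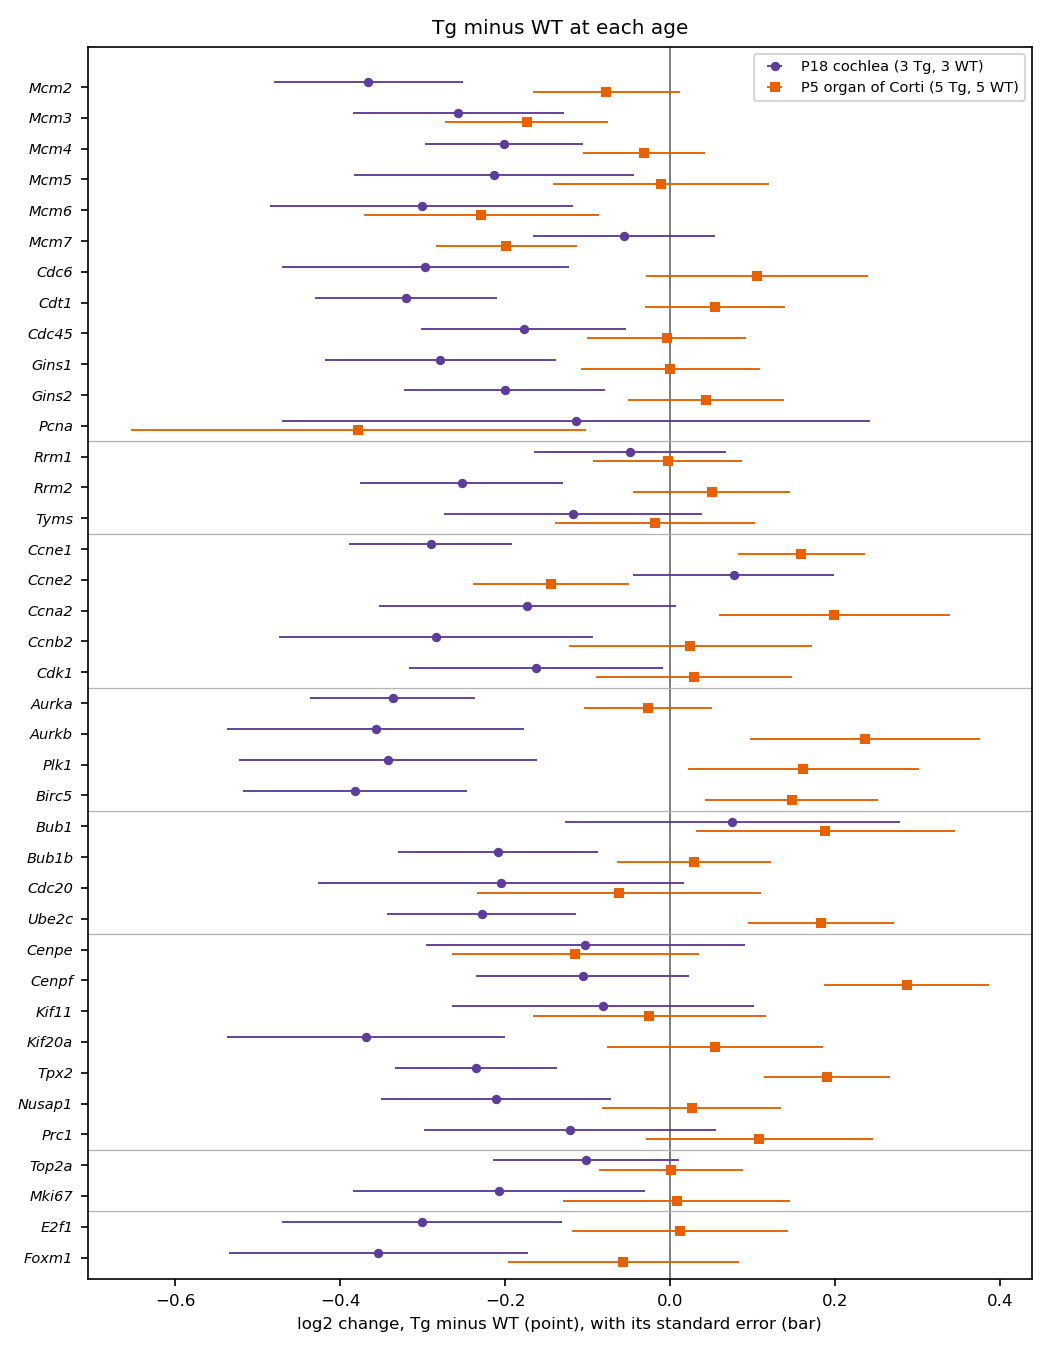
Log2 change between Tg and WT (horizontal axis, Tg minus WT) for each of the 39 genes (rows, grouped by role), with its standard error as a bar, in P18-cochlea (circles, 3 Tg and 3 WT) and P5-OC (squares, 5 Tg and 5 WT). At P18, 37 of 39 points lie below 0, and at P5, 16 of 39.

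In P5-OC, no member was called between Tg and WT, against 0.610% of all probesets, and 3 members had an unadjusted p under 0.05 (7.69%, against 16.4% of all probesets). The median log2 change was 0.01 (-0.01 over all probesets), and 23 members had a change above 0 and 16 below (53.3% of all probesets were below). In no member did the 5 Tg arrays lie all below or all above the 5 WT arrays, which held for 1.29% and 0.383% of all probesets. The lowest value was that of *Pcna* (-0.38, standard error 0.28), which was -0.08 without the low Tg replicate 5, and its second probeset gave 0.15. The highest was that of *Cenpf*, with 6.54, 6.69, 7.08, 6.48 and 6.58 in Tg and 6.29, 6.25, 6.51, 6.35 and 6.54 in WT P5-OC (log2 change 0.29, standard error 0.10, adjusted p = 0.216). *Tpx2* (0.19) and *Mcm7* (-0.20) were the other members with an unadjusted p under 0.05, and they lay on opposite sides of 0. At P5, Y-linked genes were low on most Tg arrays and high on most WT arrays. With the mean Y-linked signal in the fit, 0 members had an unadjusted p under 0.05 at P5, and the median log2 change was -0.001. The share of all probesets in that fit was not computed.

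The spread between P5 arrays exceeded the difference between genotypes. The mean over the members was 7.02, 7.10, 7.47, 7.15 and 7.09 in Tg (replicates 1 to 5), against 6.99, 6.98, 7.23, 7.24 and 7.29 in WT. Tg replicate 3 was the highest of the 10, and WT replicates 1 and 2 were the lowest. Replicates 1 and 2 of both genotypes also had lower supporting cell markers (9.30 and 9.32 in Tg, 9.32 and 9.33 in WT) than replicates 3 to 5 (9.61 to 9.77 in Tg, 9.65 to 9.74 in WT) and higher bone and cartilage markers (9.07 and 9.20 in Tg, 9.22 and 9.02 in WT, against 8.46 to 8.72 in Tg and 8.60 to 8.62 in WT). Within replicates 1 and 2 the median difference between Tg and WT over the members was 0.08, and within replicates 3 to 5 it was -0.02. Of 7 Schwann cell markers, 4 were called lower in Tg at P5, with means per array of 9.11 to 9.39 in Tg and 9.76 to 10.05 in WT, and their part was not tested. Without Tg replicate 3, *Mcm3* was called lower in Tg (log2 change -0.27, adjusted p = 0.0361), when 8.36% of all probesets were called. With array weights *Mcm7* was called lower in Tg (-0.30, adjusted p = 0.0394), when 4.93% of all probesets were called and 2.85% were called lower.

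The difference between the genotype effects at P18 and at P5 was not called for any member, against 0.596% of all probesets, and 9 members had an unadjusted p under 0.05 (23.1%, against 14.3% of all probesets). The median was -0.24, and 35 of 39 values were below 0 (50.6% of all probesets). The lowest was that of *Aurkb* (-0.59, adjusted p = 0.268), followed by *Birc5* (-0.53, adjusted p = 0.201) and *Plk1* (-0.50, adjusted p = 0.337), and the smallest adjusted p was 0.139, for *Ccne1* (-0.45). With array weights *Ccne1* and *Tpx2* were called, 5.13% of the members, against 9.30% of all probesets, and 3.95% called with a value below 0. With the mean Y-linked signal in the fit, 5 members had an unadjusted p under 0.05 for this difference, and the median was -0.27. The share of all probesets in that fit was not computed.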

How the data were processed

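The authors deposited normalized log2 signals of 34760 probesets for 16 MoGene 1.0 arrays. How background, normalization and probe summary were done is not given in the sources used here, and the methods name limma for the tests. Values were used as deposited. The platform table pairs 21640 probesets with 1 gene symbol, 1321 with several and 11799 with none. All arrays entered 1 limma 3.58.1 fit (R 4.3.3, lmFit and eBayes) with 4 group means, 12 residual and 3.23 prior degrees of freedom, and 5 contrasts. Tests were two-sided and adjusted over all probesets, with no filter and no fold limit. The number of arrays limits the precision. The 40 genes and the other lists were chosen with earlier results of these data known. Every member is named, and values on each array are given for the member with the largest and the smallest P18 minus P5 change in WT of each role. Of other lists, up to 4 genes with the smallest adjusted p per direction could be named. The P18 arrays of *Birc5*, *Aurka*, *Kif20a*, *Mcm2* and *E2f2*, the P5 arrays of *Cenpf*, and the 5 promoters were chosen after their values were seen. Alternatives included the replicate number as a block, P5 and P18 fitted apart, filters on probesets, quantile normalization repeated, a variance trend with robust estimation, array weights, the mean Y-linked signal in the fit, a block of P5 replicates 1-2 and 3-5, means over probesets, fold limits, and each array left out. Promoters are RefSeq's (GRCm38.p6). Figures used Python 3.11.15 with matplotlib 3.10.9.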

Additional observations from a re-analysis of the deposited data

Results flagged for a closer look

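In 80 groups of 5 P5 arrays, 1 for each member and for the mean over the members in each genotype, 2 held an array that stood apart from the other 4, where chance gives about 1 in 20. The mean over the members of Tg replicate 3 at P5 was 7.47, while the other Tg arrays lay between 7.02 and 7.15. *Nusap1* on WT replicate 2 at P5 was 6.88, while the other WT arrays lay between 7.29 and 7.40.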

How the results depend on the processing

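The 39 calls of higher levels at P18 stayed at 37 to 39 in Tg and 37 to 39 in WT under all alternatives, with 37 only where probesets below the median were left out, *Gins1* and *Cdc6* among them. With array weights, 1 member was called at P5, 7 at P18 and 2 for the difference between the ages, and in a separate fit of P18 1 was called. Leaving out 1 array at a time gave 0 to 1 calls at P5, 0 each time at P18 and for the difference. The count of members with all Tg arrays below all WT arrays at P18 was 28 with the values as deposited, against 13.6% of all probesets. It was 32 after repeated quantile normalization, 27 with means over probesets and 28 to 32 with 1 P18 array left out. Leaving out an array cannot lower this count, so that range does not measure its stability. These alternatives for the count were chosen after seeing the data. Deviations from the group means correlated between same-numbered arrays at 0.29, 0.36 and 0.20 for replicates 1, 2 and 4 at P5, at -0.11 and -0.22 for replicates 3 and 5, and at 0.0004 to 0.07 at P18. Since not every pair was above 0.1, the numbers were not taken to pair the arrays. With the replicate block, 0 members were called in each genotype contrast and for their difference, and 39 were called higher at P18 in both genotypes. With 3 arrays per genotype, small differences at P18 could go undetected.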
